A study of Bos taurus with 18 samples.

Results

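A set of 6 protein-coding transcripts of the mitochondrial genome, COX1, COX2, COX3, CYTB, ND1 and ATP6, were followed in blood leukocytes of cattle. They were chosen by identifier, as 6 of the 30162 features (genes and unannotated loci) of the count table, by a rule that uses no measured value but was written with earlier results of these data known. All 6 were present. COX1 is ENSBTAG00000043561, COX2 is ENSBTAG00000043556, COX3 is ENSBTAG00000043560, CYTB is ENSBTAG00000043550, ND1 is ENSBTAG00000043558 and ATP6 is ENSBTAG00000043584. These names came with the list of members, since the deposited files pair no identifier with a name, so they could not be checked against an annotation here. The 18 libraries came from 6 Red Angus (a Bos taurus beef breed), 6 Droughtmaster (a tropical breed that carries Bos indicus as well as taurine blood) and 6 F1 animals labelled Red Angus x Droughtmaster. Every animal was female and carried the heat stress label, so breed was the contrast and heat was shared by all groups. The labels gave no age, batch or parentage, and did not say which breed the dams of the F1 came from. Each animal has a name of its own and gave 1 library.

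Mitochondria keep a small circular genome that is inherited through the dam. It encodes the core membrane subunits of the respiratory chain, while most subunits of these complexes come from nuclear genes. ND1 belongs to complex I, which takes electrons from NADH. CYTB (cytochrome b) is the core of complex III. COX1, COX2 and COX3 form the core of complex IV, cytochrome c oxidase, which passes electrons to oxygen. ATP6 is part of the proton channel of ATP synthase. The genes lack introns and are transcribed as long precursors that are cut at intervening tRNAs into mRNAs with short poly(A) tails, and each mRNA then has its own stability. Of the 13 mitochondrial protein genes in the RefSeq table of cattle genes (assembly ARS-UCD2.0), ND1 comes first and CYTB last. COX1, COX2, ATP8, ATP6 and COX3 follow each other, and ATP6 overlaps ATP8 and touches COX3. How the counting assigned reads in those overlaps, or reads that also match nuclear copies of mitochondrial DNA, was not given, so ATP6 and COX3 in particular are uncertain at their ends.

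Libraries held between 11639027 and 24117615 counts. The members were counted deeply, from 4259 counts (COX2 in Droughtmaster replicate 2) to 722751 (COX1 in F1 replicate 4), so counting error was small beside the spread between animals. Levels are given as counts per 1000000 (CPM) over library sizes scaled by TMM, a method that sets most features to no change on average. Shares are percentages of all counts in a library, with no scaling. In Droughtmaster replicate 3 a single other feature took 44.6% of the counts, its TMM factor was 0.424, and its CPM values are therefore high for its shares. A group of 3 libraries had the fewest features with at least 1 count, at 15507 in F1 replicate 2, 15790 in Red Angus replicate 2 and 15855 in Red Angus replicate 4, against 16924 to 19605 in the other 15. No batch could be told from the labels, and the leukocyte identity of the samples could not be checked, since marker genes are not named in the files.

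Together the 6 transcripts took between 1.23% and 7.03% of all counts in a library. Among Red Angus libraries the summed share ran from 2.58% over a median of 3.98% to 5.51%, with a mean of 3.91% ± 1.07 (SD, n = 6). In the F1 it ran from 1.62% over 4.41% to 7.03% and averaged 4.29% ± 1.95. In Droughtmaster it ran from 1.23% over 2.24% to 3.37% and averaged 2.23% ± 0.747. The breeds overlapped, and the F1 held the widest range, from F1 replicate 3 at the bottom to F1 replicate 6 at the top. With the most abundant other feature of each library set aside, the Droughtmaster mean was 2.52% ± 0.922, and its highest library became replicate 3 at 3.64%. No test was made of this sum. In RNA from mixed blood cells, fewer cells of a kind rich in these transcripts and less of this RNA per cell cannot be told apart.

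**Figure D1:**
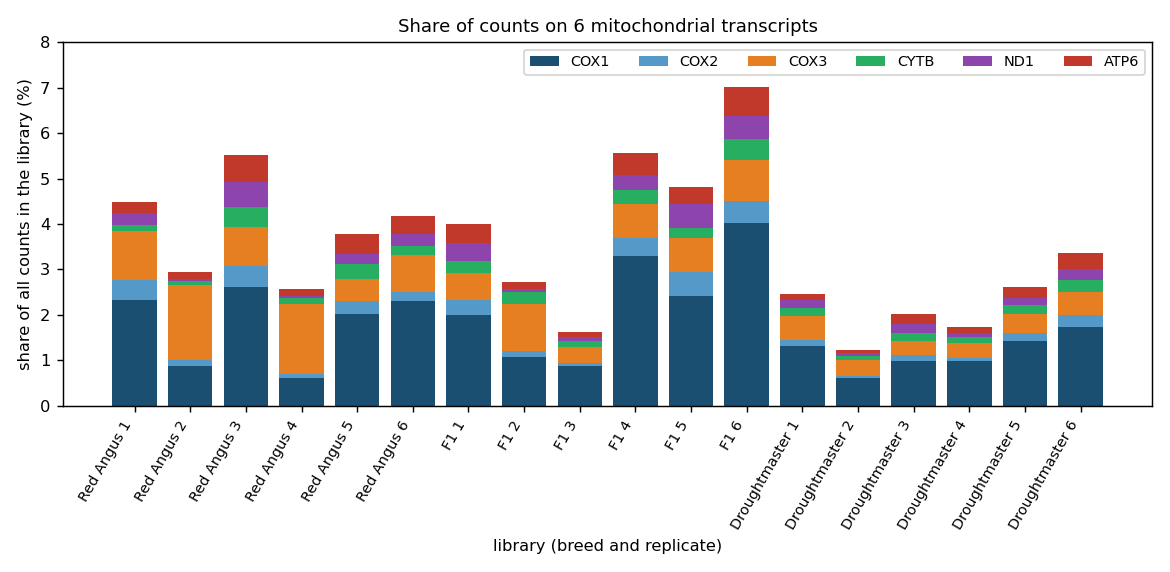
Share of all counts (%, vertical axis) on each of the 6 transcripts, stacked, in each of the 18 libraries (horizontal axis). COX1 fills the largest part in 16 libraries and COX3 in Red Angus replicates 2 and 4, and the stacks reach 7.03% in F1 replicate 6 and 1.23% in Droughtmaster replicate 2.

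COX1, the catalytic subunit of cytochrome c oxidase, had more counts than any other feature of the table in 10 of the 18 libraries. Its level in Red Angus ran from 7813 CPM over a median of 18681 to 31571 and averaged 18599 ± 9660 CPM (SD, n = 6). In the F1 it ran from 6961 over 22700 to 35026 and averaged 21308 ± 11071 CPM. In Droughtmaster it ran from 5980 over 12042 to 23294 and averaged 12533 ± 5909 CPM. The groups overlapped, although 3 Red Angus libraries and 3 F1 libraries lay above every Droughtmaster library. The highest Droughtmaster value was replicate 3, whose share of 0.985% was among the lower ones of all 18 libraries. The fitted log2 fold change was -0.57 ± 0.462 (SE) for Droughtmaster minus Red Angus (edgeR's quasi-likelihood test, Benjamini-Hochberg adjusted p = 0.518), and the difference did not pass.

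COX2, which holds the copper centre that takes electrons from cytochrome c, had the largest estimate of the 6 for F1 minus Droughtmaster. Its level ran from 1255 over a median of 1966 to 5968 CPM in Red Angus, from 429 over 3083 to 6302 in the F1 and from 356 over 1325 to 3191 in Droughtmaster. The F1 libraries spanned 14.7-fold, more than in either parental breed, and 3 of the 6 lay above every Droughtmaster library. The log2 fold change was 1.10 ± 0.587 (SE) for F1 minus Droughtmaster (edgeR adjusted p = 0.428) and -0.996 ± 0.585 for Droughtmaster minus Red Angus (edgeR adjusted p = 0.355). Neither difference passed.

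COX3, the third core subunit, had the largest estimate of the 6 between the parental breeds with all 18 libraries in the fit. Its level ran from 3388 CPM over a median of 11568 to 20025 in Red Angus (mean 12051 ± 6413, SD, n = 6). It ran from 2859 over 7087 to 11223 in the F1 (mean 7102 ± 2929). It ran from 2985 over 3614 to 7045 in Droughtmaster (mean 4336 ± 1575). All but 1 Red Angus library, 5 of 6, exceeded the highest Droughtmaster one, and the exception, replicate 5 at 3388 CPM, lay among the lowest Droughtmaster values. In shares the same 5 Red Angus libraries, at 0.809% to 1.67% of counts, lay above every Droughtmaster library, at 0.298% to 0.541%. Red Angus replicate 5, at 0.484%, lay among the higher Droughtmaster shares. The log2 fold change for Droughtmaster minus Red Angus was -1.48 ± 0.424 (SE; edgeR's quasi-likelihood test, adjusted p = 0.0625 over all 14446 features), a level in Droughtmaster 0.36 times that in Red Angus that did not pass the threshold of 0.05.

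Whether COX3 was called turned on the test and on which animals were used. DESeq2's Wald test gave the same log2 fold change of -1.48 and called it lower in Droughtmaster (adjusted p = 0.00762), as 1 of 427 features lower under that test (2.52% of those it tested). Without Red Angus replicate 5, the low library of its breed, edgeR called it as well (log2 fold change -1.67, adjusted p = 0.0165), and 4.39% of features were then called lower. Leaving out the 3 libraries that had the fewest features was a choice made after seeing the data. The log2 fold change of COX3 was then -0.96 (edgeR adjusted p = 0.26), and that of COX2 was the larger at -1.31 (edgeR adjusted p = 0.305). Those libraries held the highest COX3 levels of their breeds, at 20025 CPM in Red Angus replicate 4, 17592 in Red Angus replicate 2 and 11223 in F1 replicate 2.

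CYTB, the member whose parental estimate was nearest 0, ran from 899 CPM over a median of 1994 to 4397 in Red Angus, from 1143 over 2574 to 4025 in the F1 and from 977 over 1630 to 4402 in Droughtmaster. The highest Droughtmaster value was again replicate 3, and the other 5 lay at or below 1812 CPM. Its log2 fold change was -0.20 ± 0.412 (SE) for Droughtmaster minus Red Angus and 0.42 ± 0.412 for F1 minus Droughtmaster (edgeR adjusted p = 0.824 and 0.73).

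ND1, the only complex I subunit followed, was the most variable member within Red Angus. It ran from 480 CPM over a median of 2040 to 5362 there, an 11.2-fold span, from 669 over 3078 to 6356 in the F1 and from 616 over 1526 to 4652 in Droughtmaster. Red Angus replicates 2 and 4 were the lowest of their breed, at 480.0 and 714.0 CPM, and Red Angus replicate 3 the highest. The log2 fold change was -0.38 ± 0.624 (SE) for Droughtmaster minus Red Angus and 0.77 ± 0.627 for F1 minus Droughtmaster (edgeR adjusted p = 0.775 and 0.663).

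ATP6 ran from 1515 CPM over a median of 3273 to 5820 in Red Angus, from 875 over 3872 to 5620 in the F1 and from 687 over 1704 to 5157 in Droughtmaster. In 3 Droughtmaster libraries ATP6 was under the whole Red Angus range, while replicate 3 lay near the top of the Red Angus range. The log2 fold change was -0.65 ± 0.492 (SE) for Droughtmaster minus Red Angus and 0.67 ± 0.493 for F1 minus Droughtmaster (edgeR adjusted p = 0.484 and 0.61).

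**Figure D2:**
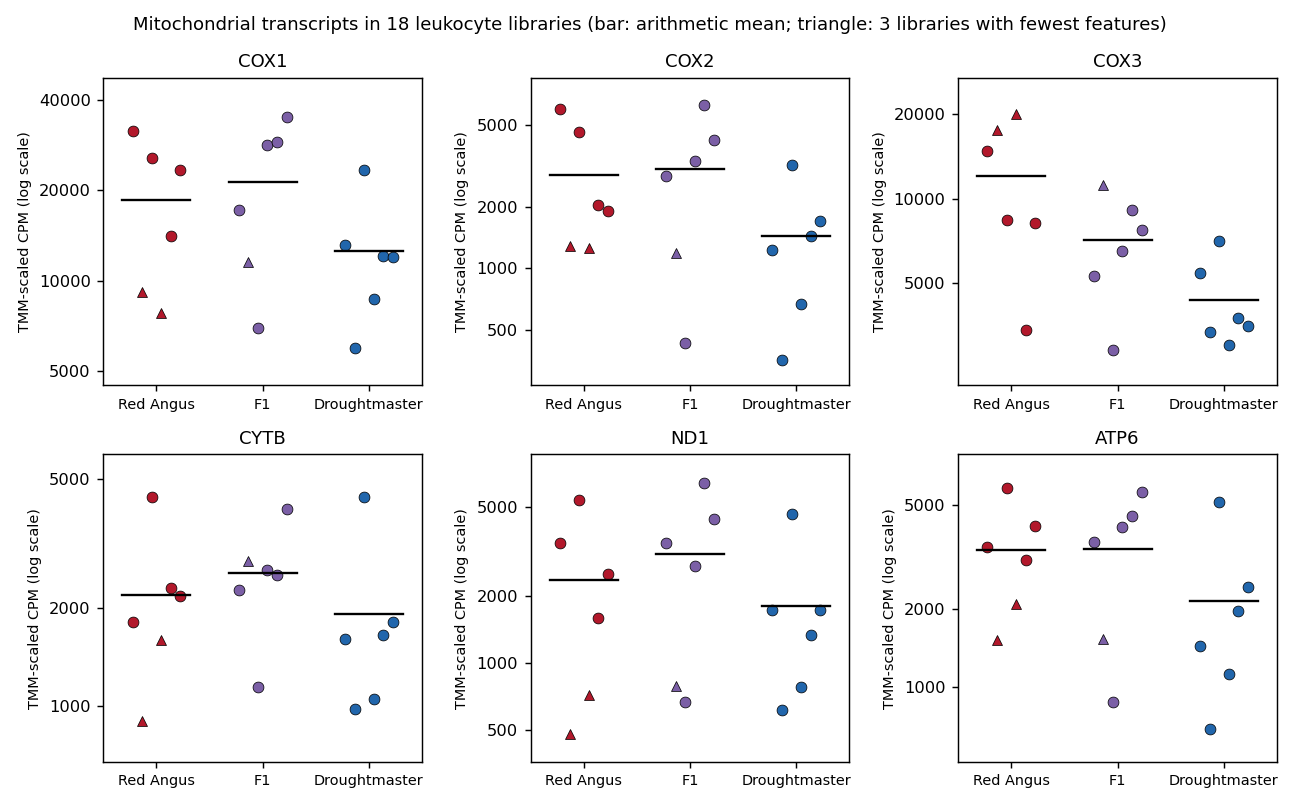
TMM-scaled CPM (vertical axis, log scale) of each transcript in each library, by breed (horizontal axis); points are animals, triangles are the 3 libraries with the fewest features, and bars are arithmetic means. For COX3, 5 Red Angus libraries lie above every Droughtmaster library and the triangles lie at the top of their breeds, while for COX1, COX2, ND1 and ATP6 the triangles lie in the lower part.

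By mean level, the order of the breeds was F1, Red Angus, Droughtmaster for COX1, COX2, CYTB, ND1 and ATP6. For COX3 it was Red Angus, F1, Droughtmaster. No neighbours in these orders passed edgeR's test, which does not show that they were equal. For F1 minus Red Angus, the log2 fold change was -0.76 ± 0.418 for COX3 (SE; edgeR adjusted p = 1) and lay between 0.01 and 0.39 for the other 5 members.

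Across the parental comparison, 0 of the 6 members passed edgeR's quasi-likelihood test, where 2.6% of all features did. At an unadjusted p under 0.05 there was 1 member, COX3, against 19.8% of all features. DESeq2 called 1 of the 6, where it called 1106 of the 16970 features it tested, in either direction. In none of the 6 were the parental groups apart without overlap, as they were for 1.64% of features. All 6 estimates were below 0, with a median of -0.61, where the median over all features was -0.01 and 50.3% of features were below 0. The sign held for all 6 under each other library scaling tried, but ND1 and CYTB turned to 0.05 and 0.12 without Red Angus replicate 3. Without Droughtmaster replicate 3 the estimates of ND1, CYTB and ATP6 were instead farther from 0, at -0.855, -0.574 and -1.06, and without Red Angus replicate 1 those of COX1 and COX2 were nearer to it, at -0.342 and -0.628. Without the 3 libraries with the fewest features the median was -0.904. COX3 alone moved toward 0 there, while COX1, COX2, ATP6, ND1 and CYTB stood at -0.883, -1.31, -0.926, -0.801 and -0.464, and 0 of the 6 passed.

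For F1 minus Droughtmaster, 0 of the 6 passed (edgeR background 1.18%), and 0 had an unadjusted p under 0.05 (14.1% of features did). DESeq2 called 0 of the 6, where it called 651 features. All 6 estimates were above 0, with a median of 0.74 against -0.01 over all features, and they kept that sign under each scaling tried and with each animal left out. Their size moved more: without Droughtmaster replicate 3, ND1 was at 1.29, CYTB at 0.854 and ATP6 at 1.14. As each animal was left out, ND1 ran from 0.448 (without F1 replicate 5) to 1.29 and CYTB from 0.249 (without F1 replicate 6) to 0.854. The ranges were 0.467 to 1.14 for ATP6, 0.57 to 1.04 for COX1, 0.782 to 1.48 for COX2 and 0.536 to 0.892 for COX3. Both groups overlapped for all 6, where they did not for 2.08% of features. This comparison and the parental one use the same Droughtmaster libraries. Because the members follow each other from animal to animal, as described below, 6 estimates with the same sign are not 6 independent observations.

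For F1 minus Red Angus, 0 of the 6 passed (background 0%), and 0 had an unadjusted p under 0.05 (3.23% of features did). DESeq2 called 0 of the 6 and 0 of all features. The groups overlapped for all 6, where they did not for 0.0969% of features. The median estimate was 0.15 against -0.05 over all features, and without the 3 libraries with the fewest features it was -0.06. Against the mid-parent value, midway between the parental means of log expression, 0 of the 6 F1 estimates passed (background 0%). None had an unadjusted p under 0.05 (5.97% of features did), and DESeq2 called 0 of the 6, where it called 51 features. Estimates ran from -0.03 for COX3 to 0.60 for COX2 (SE 0.36 and 0.492), and the COX3 value turned to 0.15 with total counts as library sizes. Standard errors of the members in the pairwise comparisons were 0.412 to 0.627, above the median of 0.385 to 0.387 over all features.

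**Figure D3:**
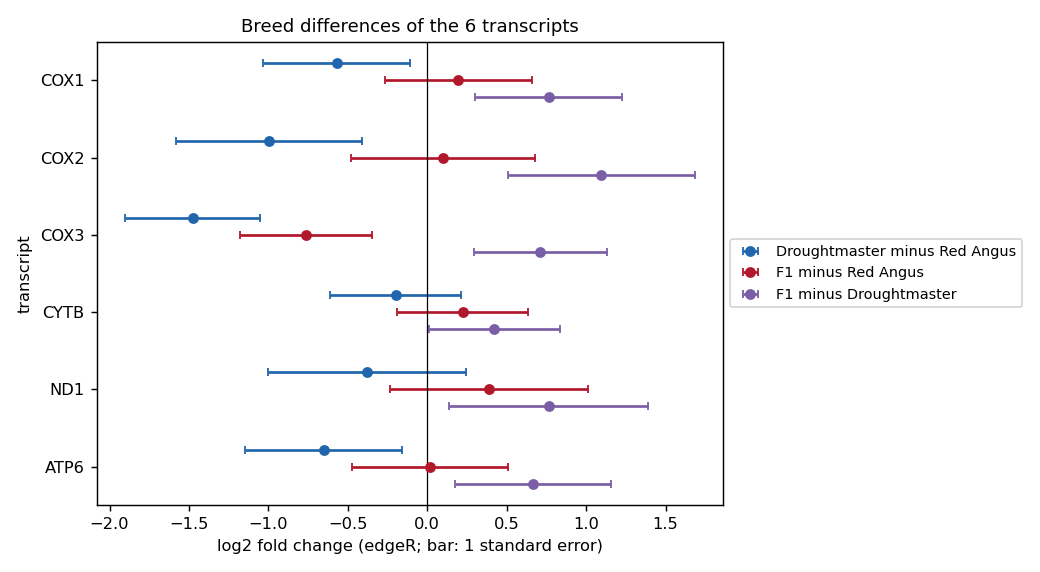
Log2 fold changes (horizontal axis) of each transcript (vertical axis) in the 3 pairwise breed comparisons, from edgeR; bars are 1 standard error. Droughtmaster minus Red Angus lies below 0 and F1 minus Droughtmaster above 0 for all 6, the COX3 value of -1.48 is the farthest from 0, and no value passed the adjusted test.

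Most members varied more between animals of a breed than the median feature did, except ATP6 in Red Angus and COX3 in Droughtmaster. Within Red Angus the SD of log2 CPM was 0.695 (ATP6) to 1.34 (ND1), against a median of 0.74 over all features tested. Within the F1 it was 0.596 (CYTB) to 1.42 (COX2), against 0.551, and the SD of COX2 exceeded that of 96.6% of features. Within Droughtmaster it was 0.477 (COX3) to 1.10 (COX2), against 0.589. COX3 was thus the steadiest member in Droughtmaster, with a 2.36-fold span of CPM, while in Red Angus it had a 5.91-fold span and an SD of 0.956, above that of 69.9% of features.

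Animals high in one transcript were high in most of the others, and COX3 was the exception. Across the 18 animals, the 10 pairs among COX1, COX2, ATP6, ND1 and CYTB had Pearson r of 0.746 to 0.931 and Spearman rho of 0.707 to 0.93 in log2 CPM. Over all 15 pairs, permutation tests with Benjamini-Hochberg adjustment gave p of 2.5e-05 to 0.000675 for r and 6e-05 to 0.00214 for rho in these 10 pairs. The smallest raw p, 1e-05, is the smallest that the resampling can give. Animals were shuffled across breeds, so breed differences in level enter these p-values. With the 2 libraries farthest from the median of the first transcript left out, r was 0.655 to 0.921 in the 10 pairs. With each breed's mean removed from all 18 animals, r was 0.743 to 0.929 in the 10 pairs. The points share their library scaling, and the members come from the same pool of mitochondrial RNA. In CPM over total counts, which still share a divisor, the median r of the 10 pairs was 0.878, against 0.888 with TMM.

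The strongest pair was COX2 with ATP6 (r = 0.931), followed by COX1 with COX2 (r = 0.929) and COX1 with ND1 (r = 0.919). The lowest of the 10 were the pairs of CYTB with COX2 (0.746) and COX1 (0.781). Within breeds (n = 6 each, as a description) the 10 pairs had r of 0.607 to 0.965 in Red Angus, 0.59 to 0.976 in the F1 and 0.923 to 0.982 in Droughtmaster.

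The 5 pairs with COX3 had r of 0.12 (ND1) to 0.455 (COX2) across the 18 animals, and rho of 0.234 to 0.428. None passed the permutation test (adjusted p of 0.0798 to 0.633 for r and 0.107 to 0.349 for rho). Without Red Angus replicates 2 and 4, the libraries farthest from the COX3 median, r was 0.604 (ATP6) to 0.763 (COX1). These libraries were picked by their COX3 level itself, so the higher r does not show what the weak pooled relation rested on. With each breed's mean removed from all 18 animals, r was 0.0864 (ND1) to 0.319 (COX2). In CPM over total counts, the median r of the 5 pairs was 0.184, against 0.313 with TMM. Within breeds, r was -0.558 to -0.154 in Red Angus, 0.355 to 0.814 in the F1 and 0.698 to 0.874 in Droughtmaster. Whether these values differ between breeds was not tested.

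**Figure D4:**
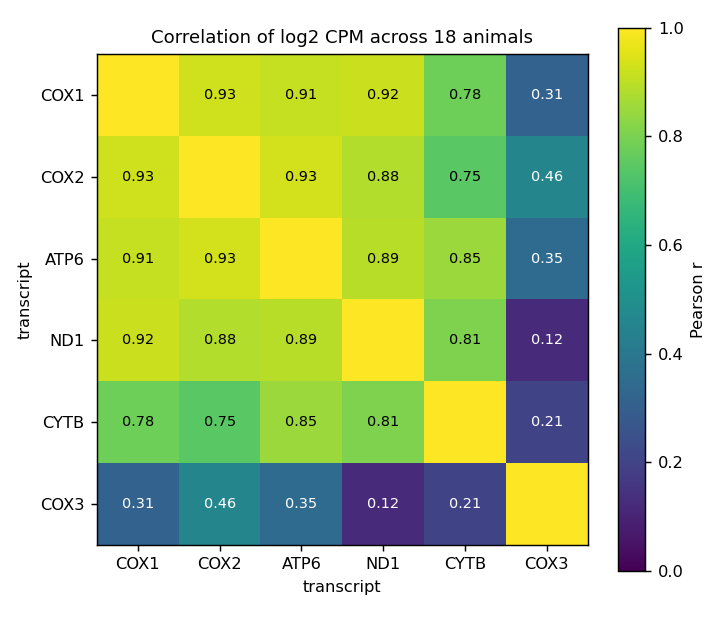
Pearson r between the log2 CPM of each pair of transcripts across 18 animals (both axes: transcripts; colour and number: r, diagonal 1). The 10 pairs without COX3 lie between 0.746 and 0.931 and the 5 pairs with COX3 between 0.12 and 0.455.

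Ratios of counts within a library do not depend on library scaling. They were not divided by transcript length, so a ratio of 1 does not mean equal numbers of molecules, and only changes of a ratio between libraries are read here. The COX3 to COX1 ratio had a median of 0.335 over all libraries and was 0.22 to 0.558 in 15 of them. It was 2.56 in Red Angus replicate 4, 1.92 in Red Angus replicate 2 and 0.974 in F1 replicate 2, the 3 libraries with the fewest features. In Red Angus replicate 4, COX3 made up 59.8% of the counts on the 6 transcripts and COX1 23.3%, where in Red Angus replicate 6 they made up 19.4% and 55.2%.

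In those libraries COX3 was high while most of the others were low. The 5 other members summed to 13338 CPM in Red Angus replicate 2 and 13467 in replicate 4, against 23071 to 46240 in the other Red Angus libraries. In F1 replicate 2 they summed to 17838 CPM, above only F1 replicate 3 at 10077. The part that the number of features counted, or the makeup of these libraries, has in the ratio was not tested. F1 replicate 3, with 18217 features, was low in all 6 transcripts and had a COX3 to COX1 ratio of 0.411. Droughtmaster replicate 2, the shallowest library, was low in the same way at 0.558, the highest ratio of its breed. Against COX2 both were high, with COX3 to COX2 ratios of 6.67 and 9.37, where the median of all libraries was 2.55. F1 replicate 2 had 9.43, so high COX3 to COX2 ratios were not confined to the libraries with the fewest features. The COX3 to CYTB ratio of F1 replicate 3 was 2.5, under the median of 2.67.

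**Figure D5:**
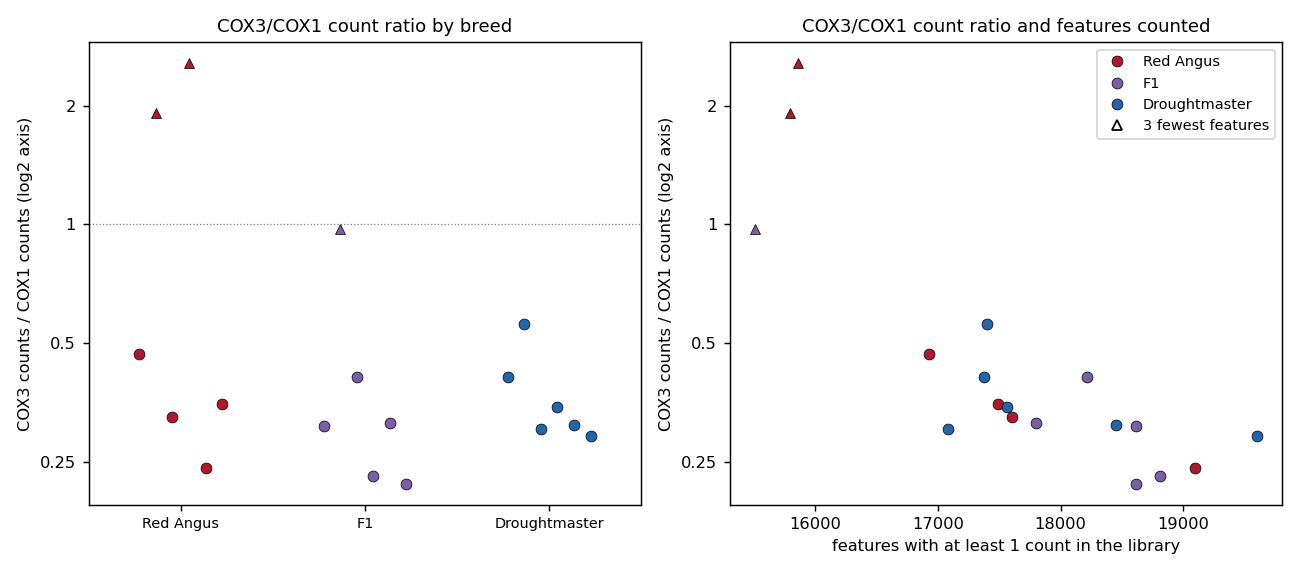
COX3 counts divided by COX1 counts (vertical axes, log2 scale) by breed (left) and against the number of features with at least 1 count (right, horizontal axis); points are libraries and triangles the 3 with the fewest features. The triangles lie at 0.974 to 2.56, above the other 15 libraries at 0.22 to 0.558.

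Between breeds, 0 of 45 tests of ratios (15 pairs in 3 comparisons) passed an exact two-sided permutation test with Benjamini-Hochberg adjustment over the 45. An unadjusted p under 0.05 was found in 3 of the 45, where a share near 0.05 would be expected with no breed difference. The ratios share members, so these tests are not independent. The log2 COX3 to COX1 ratio averaged -0.664 ± 1.44 for Red Angus, -1.50 ± 0.789 for F1 and -1.48 ± 0.36 for Droughtmaster animals (SD, n = 6). Its difference of -0.81 for Droughtmaster minus Red Angus (exact permutation p = 0.292, adjusted p = 0.731) became 0.09 without the 3 libraries with the fewest features. That exclusion was chosen after seeing the data and takes out the 3 highest COX3 to COX1 ratios. A smaller difference was therefore fixed in advance, and nothing is concluded from it.

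The smallest p of the 45 belonged to ATP6 to CYTB, which was 1.31 to 1.91 in Red Angus and 0.703 to 1.34 in Droughtmaster. In 5 of the 6 Droughtmaster libraries it was under the whole Red Angus range, and replicate 6 at 1.34 lay just inside the Red Angus range. The log2 ratio was 0.638 ± 0.264 for Red Angus and 0.0552 ± 0.337 for Droughtmaster animals (SD, 6 per breed), a difference of -0.58 that had an exact two-sided permutation p of 0.00866 and an adjusted p of 0.39. In the F1 the ratio was 0.548 to 1.8, which covered nearly all of both parental ranges, and F1 replicates 2 and 3 were its lowest at 0.548 and 0.765.

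The estimates for COX2 against CYTB and ND1 had the same sign. COX2 to CYTB had a median of 0.967 among Red Angus, 1.15 among F1 and 0.743 among Droughtmaster libraries, and 4 Droughtmaster libraries were under the Red Angus range (log2 difference -0.81, exact permutation p = 0.0238, adjusted p = 0.487). COX2 to ND1 had medians of 1.51, 0.972 and 0.787 in the same order, with 3 Droughtmaster libraries under that range (log2 difference -0.79, exact permutation p = 0.0325, adjusted p = 0.487). The steadiest ratio over all 18 libraries was COX1 to ATP6, at 3.74 to 9.16 with an SD of 0.394 on the log2 scale, and the least steady was COX3 to ND1, at 1.43 to 36.7 with an SD of 1.41.

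Among 9926 other features with a mean of at least 5 CPM, ENSBTAG00000043571 followed the mean log2 CPM of the 6 members most closely (r = 0.918 across 18 libraries, chosen for this likeness). Red Angus animals had 1320 ± 963 CPM of it, F1 animals 1670 ± 1050 and Droughtmaster animals 1050 ± 781 (SD, 6 per breed). The next was ENSBTAG00000010386 (r = 0.913), at 685 ± 225, 651 ± 222 and 561 ± 206 CPM. The lowest correlations were those of ENSBTAG00000054677 (r = -0.815), at 4.13 ± 2.93 CPM in Red Angus and 7.71 ± 4.78 in Droughtmaster, and ENSBTAG00000031553 (r = -0.805), at 18.3 ± 9.66 and 38.9 ± 25.3 CPM. The median feature had r of 0.01. What these identifiers encode, and whether any is itself mitochondrial, could not be checked, since the files give no names.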

How the data were processed

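Per the labels' protocols, blood from the tail vein was centrifuged, leukocytes were collected and lysed in RNAiso Plus, and mRNA libraries were sequenced on an Illumina NovaSeq. The authors deposited raw counts per gene, and the tools named, per the submitters' processing notes, are DESeq2 1.16.1, HISAT2 2.0.5 and featureCounts 1.5.0-p3, with build ARS-UCD1.2; strand setting and annotation release were not given in the sources used here. Breed labels set the groups, and replicate numbers follow accession order. Of 30162 features, filterByExpr by group left 14446, all 6 members among them. edgeR 4.0.16 (R 4.3.3) was fitted to all 18 libraries with TMM, 3 group means and robust quasi-likelihood F tests, two-sided; p-values were adjusted by Benjamini-Hochberg over all features, with a threshold of 0.05. Standard errors come from the F statistic, and log2 CPM has a prior count of 2. Ratios were tested over all 924 assignments of 12 animals, where the smallest possible p is 0.00216; correlations used 100000 resamples. The tests were tried on simulated data. Alternatives were RLE, total counts, total counts without the members, no filter, 2 groups per fit, DESeq2 1.42.0, leaving out each animal and, chosen after seeing the data, leaving out the 3 libraries with the fewest features. Every pair of libraries differed by more than sampling noise (chi-square at least 49.88 per degree of freedom). None of the 27607 Ensembl identifiers was in the RefSeq table (0 matches), so lists of nuclear respiratory chain genes and blood cell markers could not be used, and no sequences or lengths were available for the members. The members and lists were chosen with earlier results of these data known. Named genes are the 6 members and, among features with at least 5 CPM, the 2 with the highest and the 2 with the lowest (most negative) correlation with their mean. The depth of each library limits only rare features, not these transcripts.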

Additional observations from a re-analysis of the deposited data

How the results depend on the processing

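No member passed edgeR's test under RLE, total counts, total counts without the members, no filter, or only the groups compared. For Droughtmaster minus Red Angus the number of members called was 1 by DESeq2's Wald test and 0 to 1 as each animal was left out, COX3 in each case. In the other 3 comparisons it was 0 under every alternative, as was the number of ratios in 3 comparisons (0 to 0 as each animal was left out). Features called between the parents numbered 376, and 76, 80, 236, 56 and 1106 with total counts, total counts without members, no filter, only the groups compared and DESeq2, 143 to 1407 as each animal was left out, and 119 without the 3 libraries with the fewest features. For F1 minus Droughtmaster they numbered 171, and 64, 61 and 651 with total counts, total counts without members and DESeq2, 65 to 335 as each animal was left out, and 105 without those 3 libraries. Against the mid-parent value DESeq2 called 51 features and edgeR 0. The median log2 fold change of all features between the parents was 0.10 by DESeq2, which kept low features.

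Signs that turned belonged to values that did not pass, and the cause was not tested. Without the 3 libraries with the fewest features, F1 minus Red Angus was -0.058 for CYTB, -0.0605 for COX2 and -0.11 for ATP6, and COX3 against the mid-parent value was 0.059. That COX3 value was 0.15 with total counts and 0.17 with total counts without the members. The parental log2 ratio differences of COX3 to COX1, COX2, ATP6 and ND1 became 0.0937, 0.601, 0.318 and 0.135 without those 3 libraries. With medians in place of means, COX3 to COX2 was 0.0641 between the parents and COX3 to CYTB was -0.0264 for F1 minus Droughtmaster. As each animal was left out, the parental difference ran from -0.855 to 0.0478 for ND1 and from -0.57 to 0.12 for CYTB. F1 minus Red Angus ran from -0.00209 to 0.43 for COX1, -0.18 to 0.45 for COX2 and -0.19 to 0.25 for ATP6. COX3 against the mid-parent value ran from -0.19 to 0.14. The parental COX3 to COX2 ratio ran from -0.56 to 0.10. For F1 minus Droughtmaster, COX3 to COX1 ran from -0.32 to 0.11, COX3 to ATP6 from -0.38 to 0.16 and COX3 to ND1 from -0.47 to 0.20. No paired analysis was made, since the groups are different animals and the labels link none of them across breeds.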
